A study of Danio rerio with 30 samples.

Results

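The genes described here are the aminoacyl-tRNA synthetases of the zebrafish and 2 proteins that hold several of them together, *aimp1* and *aimp2*. Part of the choice was *aimp1*, which the study names among its changed genes, and the members were then picked by gene name. Names taken were *eprs* and any amino acid letter followed by *ars*, with or without a closing 1, 2, a, b or l. Any name beginning with *aimp1* or *aimp2* was taken too. This gave 28 of the 14648 features listed in the triplicate experiment, namely 16 cytosolic enzymes, 10 mitochondrial enzymes (names ending in 2) and 2 partner proteins. The preliminary experiment listed the same 14648 features and 28 members at 21 hpf (hours post fertilisation). At 18 hpf it used another set of 31874 features, in which 33 members were found, 20 cytosolic, 12 mitochondrial and 1 partner. Over the 3 tables there were 37 names, of which 24 were listed in every table, 4 (*aimp2*, *nars2*, *wars* and *yars2*) were not listed in the preliminary experiment at 18 hpf, and 9 (among them *aars2*, *cars2*, *gars*, *hars2*, *larsa*, *larsb*, *nars* and *vars*) were listed only there.

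Each synthetase joins 1 kind of amino acid to its tRNA, and the loaded tRNA then delivers that amino acid to the ribosome. Cytosol and mitochondrion mostly use separate enzymes from separate nuclear genes, although in mammals the genes for lysyl- and glycyl-tRNA synthetase each supply both compartments. In vertebrates a subset of the cytosolic enzymes (*dars*, *eprs*, *iars*, *kars*, *lars*, *mars*, *qars* and *rars*) is bound in a multi-synthetase complex by scaffold proteins that include *aimp1* and *aimp2*, and several synthetases have further roles, among them roles in blood vessel growth.

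RNA was sequenced from pools of 10 *AB embryos, wildtype or injected as single cells with morpholinos against *tbx5a*, *tbx5b* or both, to ask which genes depend on each Tbx5 paralogue. The triplicate experiment had 3 libraries for each of 8 groups (Tbx5a-deficient, Tbx5b-deficient, embryos deficient in both, called double-deficient, and wildtype, each at 18 and 21 hpf), and the eyes were removed before extraction. The preliminary experiment used whole embryos and had 1 library each for Tbx5a-deficient, Tbx5b-deficient and wildtype embryos at both stages, with no double-deficient embryos. Morpholinos lower a gene's product without removing the gene, so deficient here means injected, and because whole bodies were pooled, fewer cells of a type and less RNA per cell cannot be told apart.

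Levels are in FPKM (fragments per kilobase of transcript, scaled to the number of mapped fragments), which allows levels of different genes to be set side by side. The triplicate experiment gives 1 value per group, combined by the authors from 3 libraries, with a lower and an upper confidence bound, so the spread between libraries is not known and no p-value was computed. A feature counted as changed when its log2 ratio of (FPKM + 1) was at least 1 in size and the bounds of both groups did not overlap. The upper bound of the members lay at a median of 42.8% to 48.1% above the value over the 8 triplicate groups, so that a member of median width needed a 2.50- to 2.86-fold difference to separate, against 1.82- to 1.86-fold (18 hpf) and 1.71- to 1.72-fold (21 hpf) among preliminary libraries. Summed FPKM ran from 859057 in Tbx5b-deficient embryos at 18 hpf to 1293230 in wildtype embryos at 21 hpf, so the scaling between groups was also varied. The morpholino targets could not check the labels: *tbx5a* bounds overlapped between each deficient group and wildtype in the triplicate experiment, and *tbx5a* was listed in the preliminary experiment at 5.30 FPKM under the Tbx5b-deficient label at 18 hpf, against 1.11 FPKM in wildtype, and at 16.1 FPKM under the Tbx5a-deficient label at 21 hpf, against 2.51 FPKM in wildtype. For that reason the preliminary libraries are called by their labels.

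Cytosolic enzymes were about an order of magnitude more abundant than mitochondrial ones, in every group. In the triplicate experiment the median cytosolic level was 57.5, 48.7 and 61.4 FPKM in Tbx5a-, Tbx5b- and double-deficient embryos at 18 hpf, against 47.3 FPKM in wildtype embryos, and the median mitochondrial level was 5.45, 5.11 and 5.73 FPKM, against 5.31 FPKM in wildtype embryos. At 21 hpf the cytosolic medians were 51.4, 53.7 and 49.4 FPKM in the same deficient groups, against 56.0 FPKM in wildtype embryos, and the mitochondrial medians were 4.60, 4.92 and 5.12 FPKM, against 5.07 FPKM in wildtype embryos. Over all 14 groups of both experiments the median cytosolic enzyme stood 8.89 to 11.2 times above the median mitochondrial one. In each of the 8 triplicate groups, and in each of the 3 preliminary groups at 21 hpf, the lowest cytosolic enzyme, *cars*, was above the highest mitochondrial one.

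The highest and lowest enzymes of each class were mostly the same in every group. The cysteinyl-tRNA synthetase *cars* was the lowest cytosolic enzyme, with 16.4, 19.1 and 15.9 FPKM in Tbx5a-, Tbx5b- and double-deficient embryos, against 15.7 FPKM in wildtype embryos at 18 hpf. The lysyl-tRNA synthetase *kars*, a complex member, was the highest, with 299.9, 275 and 341 FPKM in Tbx5a-, Tbx5b- and double-deficient embryos, against 292 FPKM in wildtype embryos at 18 hpf. Among mitochondrial enzymes the asparaginyl-tRNA synthetase *nars2* was the lowest in every triplicate group (1.67, 1.75 and 1.69 FPKM in the deficient groups and 1.62 FPKM in wildtype embryos at 18 hpf). The isoleucyl-tRNA synthetase *iars2* was the highest mitochondrial enzyme in 7 of 8 triplicate groups (11.0, 9.71 and 10.8 FPKM against 10.1 FPKM at 18 hpf). The exception was wildtype at 21 hpf, where the tryptophanyl-tRNA synthetase *wars2* had 8.01 FPKM and *iars2* 7.87 FPKM. The 2 scaffold proteins ranked among the abundant cytosolic enzymes, *aimp1* at 98.6 to 206 FPKM and *aimp2* at 66.7 to 136 FPKM over the 8 triplicate groups.

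**Figure D1:**
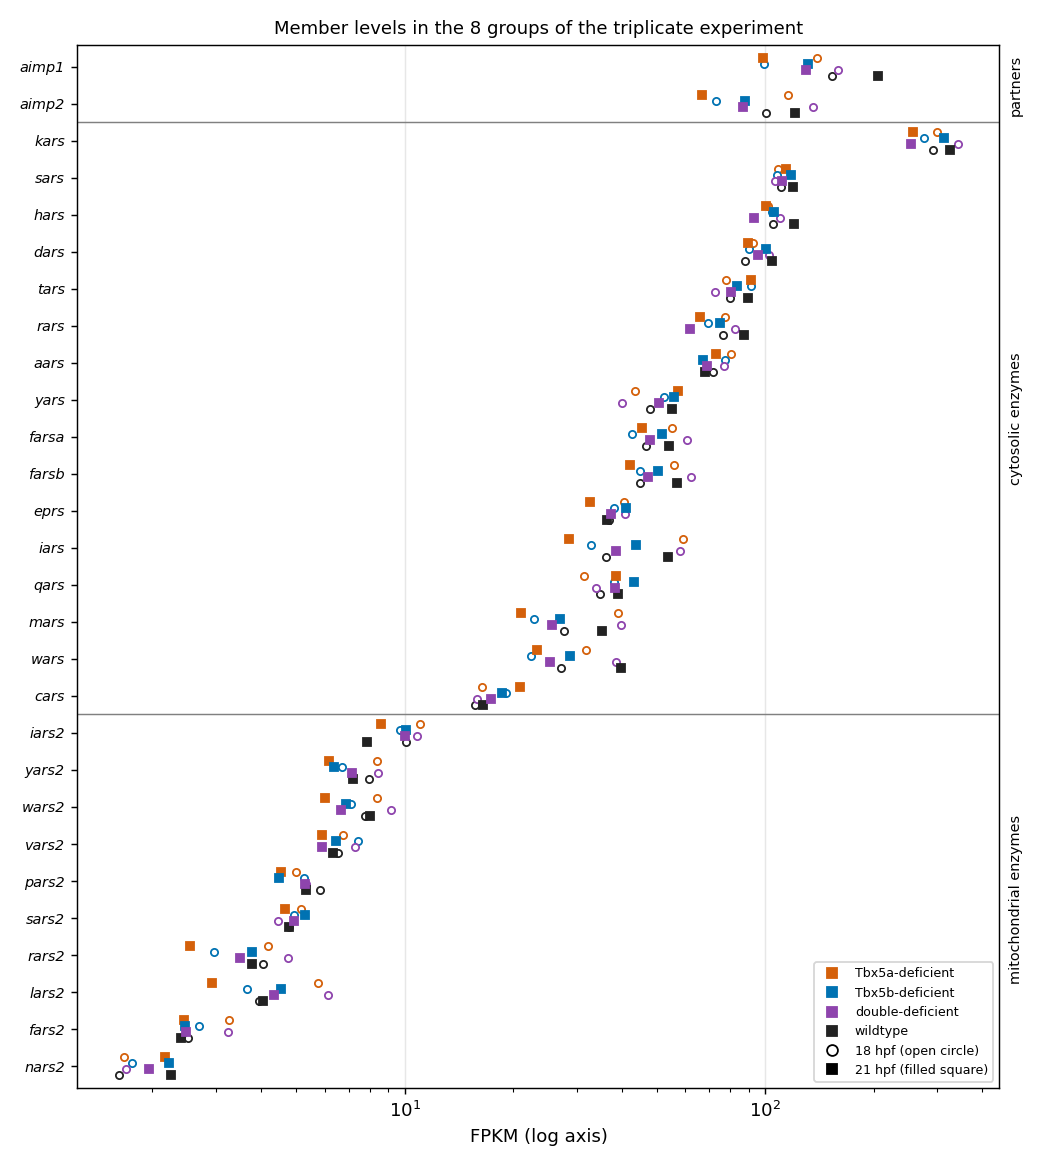
FPKM of the 28 members (rows, ordered by their wildtype level at 18 hpf within each class) on a log axis in the 8 triplicate groups, with colour for the group, open circles for 18 hpf and filled squares for 21 hpf. Every cytosolic enzyme lies to the right of every mitochondrial one, and *aimp1* in wildtype embryos at 21 hpf (206 FPKM) is the highest of its 8 values.

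In the preliminary experiment at 18 hpf 1 row broke the separation of the classes. The row named *hars2* had 23.8 and 19.2 FPKM in the libraries labelled Tbx5a- and Tbx5b-deficient, against 25.0 FPKM in the wildtype library, while the lowest cytosolic row, *larsa*, had 14.6 and 15.6 FPKM in the libraries labelled Tbx5a- and Tbx5b-deficient, against 14.4 FPKM in the wildtype library. RefSeq (assembly GRCz12tu) lists *hars2* as an older name of *dtd1*, which encodes a D-tyrosyl-tRNA deacylase, an enzyme that removes wrongly loaded D-amino acids from tRNA and is not a synthetase. Without this row the remaining 11 mitochondrial enzymes were at 1.96 to 7.54 and 2.29 to 6.97 FPKM in the libraries labelled Tbx5a- and Tbx5b-deficient, against 2.28 to 8.19 FPKM in the wildtype library, below all cytosolic enzymes. RefSeq matched 34 of the 37 names, all to protein-coding genes on the chromosome given in the tables, and lists *aimp1* as *aimp1a*.

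The scaffold *aimp1*, whose mammalian counterpart is also cut to release a cytokine, had the widest range of all members, 2.08-fold in FPKM + 1 over the 8 triplicate groups. It was listed on chromosome 1 at 49650153 to 49675828, as a whole gene locus. The submitters' processing notes name GRCz10 and the study's methods name Zv9, so the build of these coordinates is not settled, and the preliminary table at 18 hpf gives other coordinates for the gene. At 18 hpf *aimp1* stood at 139 FPKM (bounds 80.3 to 197) in Tbx5a-deficient, 99.1 FPKM (bounds 57.0 to 141) in Tbx5b-deficient and 159 FPKM (bounds 91.3 to 227) in double-deficient embryos, against 154 FPKM (bounds 80.4 to 227) in wildtype embryos. At 21 hpf it stood at 98.6 FPKM (bounds 57.4 to 139.9) in Tbx5a-deficient, 132 FPKM (bounds 76.2 to 187) in Tbx5b-deficient and 129.7 FPKM (bounds 73.3 to 186) in double-deficient embryos, against 206 FPKM (bounds 94.5 to 317) in wildtype embryos. All 3 deficient values at 21 hpf were under the wildtype value, which was the highest of the 8 groups, but every pair of bounds overlapped. The log2 ratios to wildtype were -0.15, -0.63 and 0.05 at 18 hpf and -1.05, -0.64 and -0.66 at 21 hpf, in the order Tbx5a-, Tbx5b- and double-deficient. The largest of these, -1.05, reached the size needed for a call, and its bounds did not separate. The study chose *aimp1* for in situ hybridisation from these same libraries, after more than 1 of its analyses had called it differentially expressed. Those analyses used other rules than the call made here, and the values here are not independent evidence. By in situ hybridisation, a separate assay, the study describes *aimp1* staining that appears lower in all 3 deficient groups at 21 hpf, and reports this as matching its sequencing. It describes this most for Tbx5b- and double-deficient embryos, whereas the lowest triplicate level at 21 hpf was in Tbx5a-deficient embryos (98.6 FPKM).

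The 3 contrasts of a stage share their wildtype libraries, and wildtype at 21 hpf had the largest summed FPKM. When each group was rescaled to the same sum of FPKM, the median log2 ratio of all features at 21 hpf moved to 0.46, 0.32 and 0.35 in Tbx5a-, Tbx5b- and double-deficient embryos, and *aimp1* stood at -0.49, -0.23 and -0.22, still below 0 and below that median. At 18 hpf the rescaled values of *aimp1* were -0.12, -0.31 and -0.07, against medians of -0.02, 0.27 and -0.13 for all features. Its sign in double-deficient embryos thus turned with the scaling. In the preliminary experiment at 18 hpf *aimp1* had 82.5 and 83.0 FPKM in the libraries labelled Tbx5a- and Tbx5b-deficient, against 94.8 FPKM in the wildtype library. At 21 hpf it had 93.8 and 101 FPKM in the libraries labelled Tbx5a- and Tbx5b-deficient, against 91.5 FPKM in the wildtype library. The log2 ratios were -0.20 and -0.19 at 18 hpf and 0.03 and 0.14 at 21 hpf, with overlapping bounds. At 18 hpf the preliminary row of *aimp1* covered a longer locus that was also listed for *tbck*.

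The second scaffold, *aimp2*, which binds many of the enzymes of the complex, lay below wildtype at 21 hpf in the same 3 groups. At 18 hpf it had 116, 73.0 and 136 FPKM in Tbx5a-, Tbx5b- and double-deficient embryos, against 100.1 FPKM in wildtype embryos. At 21 hpf it had 66.7, 88.0 and 86.7 FPKM in Tbx5a-, Tbx5b- and double-deficient embryos, against 121 FPKM in wildtype embryos. The log2 ratios were 0.21, -0.45 and 0.44 at 18 hpf and -0.84, -0.45 and -0.47 at 21 hpf, and all bounds overlapped. Rescaled to a common sum, the 21 hpf values were -0.28, -0.04 and -0.03. *aimp2* was 0.585 to 0.855 times the level of *aimp1* over the 8 triplicate groups, and 0.644 to 0.824 times in the 3 preliminary groups at 21 hpf. In those preliminary libraries *aimp2* had 74.0 and 64.8 FPKM in the libraries labelled Tbx5a- and Tbx5b-deficient, against 75.4 FPKM in the wildtype library.

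Summed levels of marker genes of somitic muscle, the yolk syncytial layer and the eye differed between groups at 21 hpf. None of these markers was called in the triplicate contrasts of that stage, where 0.298%, 0.224% and 0.277% of all features were. All 8 markers of somitic muscle were above 0 in every triplicate group, with a summed level of 4412, 5777 and 6782 FPKM in Tbx5a-, Tbx5b- and double-deficient embryos at 21 hpf, against 5060 FPKM in wildtype embryos. No muscle marker had a log2 ratio of 0.5 or more in size in Tbx5a- or Tbx5b-deficient embryos at 21 hpf. In double-deficient embryos 3 of 8 lay at or above 0.5 (4.65% of all features did). The 5 markers of the yolk syncytial layer, all above 0, summed to 14055, 14808 and 15968 FPKM, against 18784 FPKM in wildtype embryos. The 8 eye markers, of which *crygm2d1* was at 0 in every triplicate group, summed to 14.5, 24.1 and 15.0 FPKM, against 10.8 FPKM in wildtype embryos. These are low sums from embryos whose eyes had been removed, and only 4, 6 and 4 of the eye markers passed the filter on low values. Of those, 3, 5 and 2 lay at or above 0.5 (2.38%, 0.635% and 4.65% of all features did). *cryba1l1* lay at or below -0.5 in Tbx5a- and double-deficient embryos. In preliminary embryos at 21 hpf, with eyes, the eye sums under the Tbx5a- and Tbx5b-deficient labels were 296 and 169 FPKM, against 315 FPKM in wildtype. Under the Tbx5b-deficient label 5 of 8 eye markers lay at or below -0.5 (6.3% of all features), and 3 were called lower (1.65% of all features called). The muscle sums there were 11386 and 8657 FPKM, against 10486 FPKM. As a share of all summed FPKM, the yolk syncytial markers made up 1.61%, 1.53% and 1.68% in the deficient groups, against 1.45% in wildtype embryos, so their direction depended on the scaling. The muscle markers made up 0.505%, 0.597% and 0.715%, against 0.391% in wildtype embryos. The study describes *aimp1* staining in all somites at 21 hpf. The part of these tissues in the difference of *aimp1* was not tested.

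**Figure D2:**
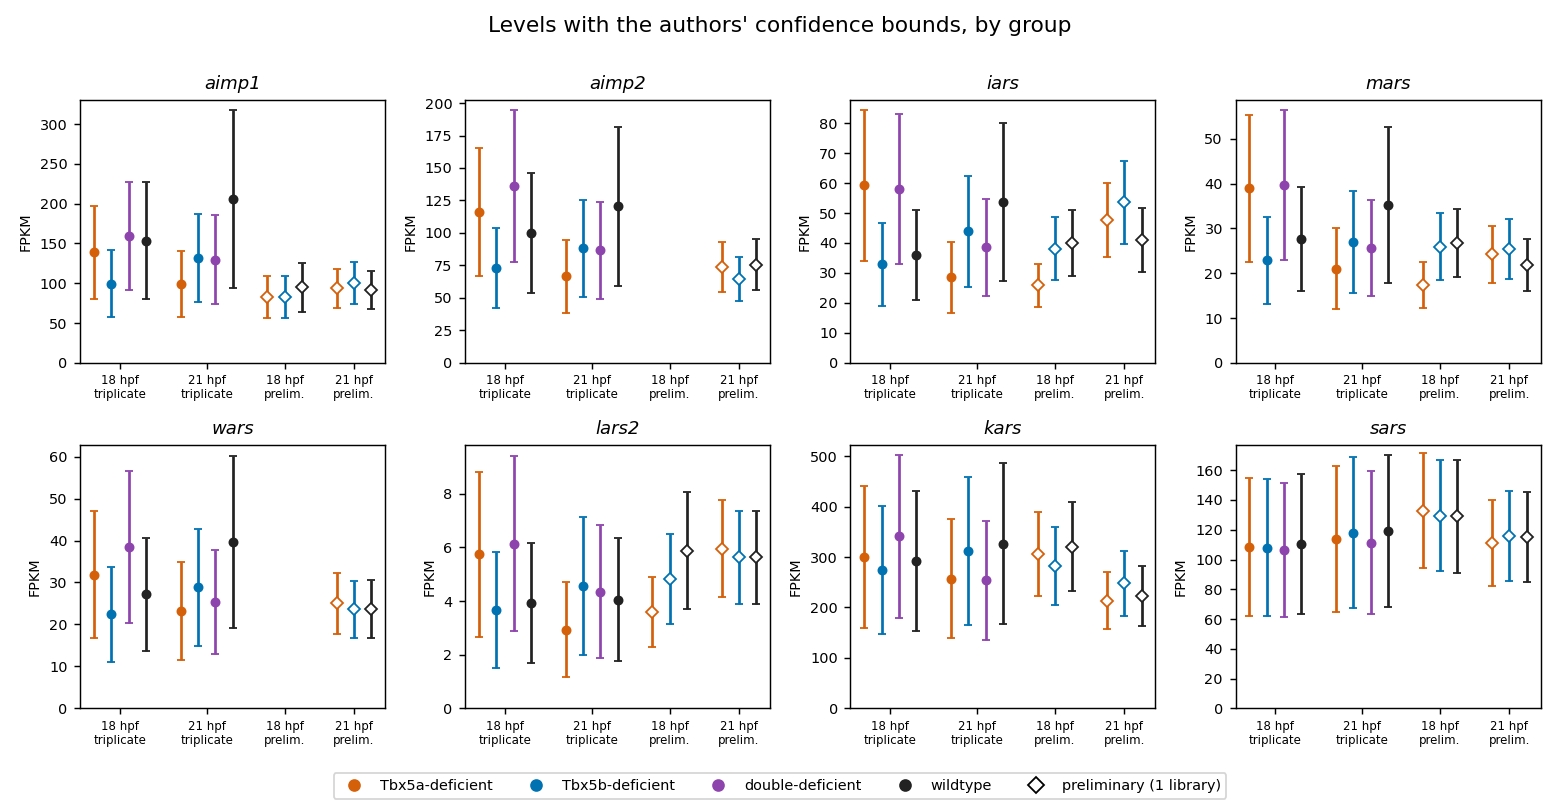
FPKM of 8 members and the range between the authors' bounds (bars), by group; filled circles are triplicate groups and open diamonds single preliminary libraries, and gaps mark tables in which a gene is not listed. Bounds overlap between each deficient group and its wildtype in every panel, the triplicate values of *iars* and *mars* differ in direction between stages, and *sars* is level.

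Over all members no call was made. In the triplicate experiment 0 of 28 members passed in Tbx5a-deficient (0.255% of all kept features called), Tbx5b-deficient (0.254%) or double-deficient embryos (0.237%) at 18 hpf, and 0 of 28 at 21 hpf, where 0.298%, 0.224% and 0.277% of features were called in Tbx5a-, Tbx5b- and double-deficient embryos. In the preliminary experiment 0 of 32 usable members passed at 18 hpf under the Tbx5a-deficient (1.57%) and the Tbx5b-deficient label (1.58%), and 0 of 28 at 21 hpf (0.0772% and 1.65%). With backgrounds this low, 0 calls among 28 or 32 members say nothing particular about the members. All 28 members passed the filter on low values (1 FPKM in at least 1 group) in the triplicate contrasts. At 18 hpf in the preliminary experiment *qars* was left out because its wildtype value was not marked usable by the authors' software. If the bounds are set aside, 1 member passes in 1 contrast, *aimp1* in Tbx5a-deficient embryos at 21 hpf, where 1.51% of all features do. The same share of all features was 0.416%, 0.377% and 0.388% in Tbx5a-, Tbx5b- and double-deficient embryos at 18 hpf, 0.523% and 0.776% in Tbx5b- and double-deficient embryos at 21 hpf, and 3.49% and 3.81% (18 hpf) and 0.378% and 2% (21 hpf) under the preliminary Tbx5a- and Tbx5b-deficient labels.

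A smaller shift of 0.5 on the log2 scale, whatever the bounds, picked out few members. At 21 hpf 5 of 28 members lay at or below -0.5 in Tbx5a-deficient embryos (*aimp1*, *aimp2*, *iars*, *mars* and *wars*), which is 17.9% of members and 11.3% of all features. In Tbx5b-deficient embryos only *aimp1* did (4.67% of all features), and in double-deficient embryos *aimp1* and *wars* did, 7.14% of members against 7.25% of all features. None of the 28 lay at or above 0.5 at 21 hpf in Tbx5a-deficient (2.38% of all features), Tbx5b-deficient (0.635%) or double-deficient embryos (4.65%). At 18 hpf *iars* lay at or above 0.5 in Tbx5a-deficient embryos (1.22% of all features), and *iars*, *lars2* and *mars* did in double-deficient embryos, 10.7% of members against 1.44% of all features. In Tbx5b-deficient embryos *aimp1* lay at or below -0.5 (3.04% of all features) and no member at or above 0.5 (1.33%). No member lay at or below -0.5 at 18 hpf in Tbx5a-deficient (1.42%) or double-deficient embryos (1.63%).

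Among enzymes of the multi-synthetase complex, isoleucyl- and methionyl-tRNA synthetase lay above wildtype at 18 hpf and below it at 21 hpf in Tbx5a- and double-deficient embryos, within overlapping bounds. This was not particular to them. On the deposited scale *kars*, *rars* and *dars* had the same directions, with log2 ratios of 0.02 to 0.22 at 18 hpf and -0.49 to -0.12 at 21 hpf. So did, among others, *aimp2*, *wars*, *farsa* and *farsb*, against the same wildtype groups. *iars* had 59.2, 32.9 and 58.0 FPKM in Tbx5a-, Tbx5b- and double-deficient embryos, against 36.1 FPKM in wildtype embryos at 18 hpf. At 21 hpf it had 28.5, 43.9 and 38.6 FPKM in Tbx5a-, Tbx5b- and double-deficient embryos, against 53.7 FPKM in wildtype embryos. Tbx5a- and double-deficient embryos were thus the highest groups at 18 hpf and lower than wildtype at 21 hpf, with log2 ratios of 0.70, -0.13 and 0.67 at 18 hpf and -0.89, -0.29 and -0.46 at 21 hpf in the order Tbx5a-, Tbx5b- and double-deficient. All bounds overlapped, in Tbx5a-deficient embryos at 18 hpf 34.0 to 84.4 against 21.0 to 51.1 FPKM in wildtype and at 21 hpf 16.6 to 40.4 against 27.3 to 80.0 FPKM. After rescaling, *iars* stood at 0.72, 0.18 and 0.55 at 18 hpf and -0.34, 0.12 and -0.03 at 21 hpf, so that its sign in Tbx5b-deficient embryos changed with the scaling. The rescaled medians of all features were -0.02, 0.27 and -0.13 at 18 hpf and 0.46, 0.32 and 0.35 at 21 hpf. In Tbx5b-deficient embryos *iars* was below the median of all features at both stages under either scaling.

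*mars*, the methionyl-tRNA synthetase, is named after its values were seen, since it ranked just below the members chosen by size of shift. It had 38.9, 22.9 and 39.8 FPKM in Tbx5a-, Tbx5b- and double-deficient embryos, against 27.7 FPKM in wildtype embryos at 18 hpf. At 21 hpf *mars* had 21.0, 26.9 and 25.7 FPKM in Tbx5a-, Tbx5b- and double-deficient embryos, against 35.3 FPKM in wildtype embryos. As for *iars*, Tbx5a- and double-deficient embryos at 18 hpf were the highest groups and Tbx5a-deficient embryos at 21 hpf the lowest. The log2 ratios of *mars* were 0.47, -0.27 and 0.50 at 18 hpf and -0.72, -0.38 and -0.44 at 21 hpf, again with overlapping bounds. Rescaled, the 21 hpf ratios of *mars* were -0.18, 0.03 and -0.01, against medians of 0.46, 0.32 and 0.35 for all features. The sign of *mars* in Tbx5b-deficient embryos thus changed.

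*kars* had 257, 312 and 254 FPKM in Tbx5a-, Tbx5b- and double-deficient embryos, against 326 FPKM in wildtype embryos at 21 hpf, with log2 ratios of -0.34, -0.06 and -0.36 that became 0.22, 0.35 and 0.09 after rescaling. *eprs*, which carries the glutamyl and the prolyl enzyme in a single chain, had 32.7, 41.0 and 37.3 FPKM in Tbx5a-, Tbx5b- and double-deficient embryos, against 36.4 FPKM in wildtype embryos at 21 hpf. Its log2 ratios were 0.13, 0.05 and 0.14 at 18 hpf and -0.15, 0.17 and 0.04 at 21 hpf, and after rescaling 0.15, 0.36 and 0.03 at 18 hpf and 0.40, 0.57 and 0.47 at 21 hpf. The rescaled medians of all features at 18 hpf were -0.02, 0.27 and -0.13. The 7 complex enzymes listed in the triplicate experiment had a median log2 ratio of 0.08, -0.09 and 0.22 at 18 hpf and -0.34, -0.06 and -0.36 at 21 hpf. The 9 cytosolic enzymes outside the complex had medians of 0.06, 0.00 and 0.06 at 18 hpf and -0.06, -0.07 and -0.15 at 21 hpf. At 21 hpf 7, 5 and 6 of the 7 complex enzymes were below 0 in Tbx5a-, Tbx5b- and double-deficient embryos, and 5, 7 and 7 of the 9 others were, where 52.0%, 57.5% and 54.4% of all features were. After rescaling 2, 0 and 3 of the 7 complex enzymes were below 0 (10.8%, 9.9% and 11.6% of all features), and their medians were 0.22, 0.35 and 0.09, against 0.46, 0.32 and 0.35 for all features. The sign of the complex medians thus changed, and no direction was read for the complex as a group. In Tbx5a- and double-deficient embryos its median was below that of all features (-0.02 and -0.03 as deposited) under both scalings. In Tbx5b-deficient embryos it was not, and the difference was not tested.

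Of the cytosolic enzymes outside the complex, the tryptophanyl-tRNA synthetase *wars* was the one furthest below wildtype at 21 hpf. At 18 hpf *wars* had 31.9, 22.4 and 38.5 FPKM in Tbx5a-, Tbx5b- and double-deficient embryos, against 27.2 FPKM in wildtype embryos. At 21 hpf *wars* had 23.3, 28.8 and 25.3 FPKM in Tbx5a-, Tbx5b- and double-deficient embryos, against 39.7 FPKM in wildtype embryos. The log2 ratios of *wars* were 0.22, -0.27 and 0.49 at 18 hpf and -0.75, -0.45 and -0.63 at 21 hpf. Wildtype at 21 hpf was the highest of its 8 groups and Tbx5b-deficient at 18 hpf the lowest, and the bounds of each deficient group overlapped those of wildtype. The ratios at 21 hpf became -0.20, -0.04 and -0.20 after rescaling. The listed *wars* locus was short, chromosome 17 at 1507865 to 1509312. In the preliminary libraries at 21 hpf *wars* had 25.0 and 23.6 FPKM in the libraries labelled Tbx5a- and Tbx5b-deficient, against 23.7 FPKM in the wildtype library.

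Other synthetases with known roles in vessels, beside *wars*, whose fragments are angiostatic in mammals, were *sars*, *yars* and *tars*. On the deposited scale their triplicate log2 ratios to wildtype ran from -0.25 to 0.19. In the preliminary experiment *tars* had ratios of 0.27 at 18 hpf under both deficient labels. At 21 hpf it had -0.05 and -0.11 under the Tbx5a- and Tbx5b-deficient labels. The seryl-tRNA synthetase *sars*, needed for normal vessel growth in zebrafish, was the steadiest member: over the 8 triplicate groups it ran from 106 to 119 FPKM, a 1.12-fold range, and only 0.752% of all features varied less. It had 114, 118 and 111 FPKM in Tbx5a-, Tbx5b- and double-deficient embryos, against 119 FPKM in wildtype embryos at 21 hpf. The tyrosyl-tRNA synthetase *yars*, whose fragments are angiogenic in mammals, had 43.6, 52.4 and 40.1 FPKM in Tbx5a-, Tbx5b- and double-deficient embryos, against 47.9 FPKM in wildtype embryos at 18 hpf. Its log2 ratios were -0.13, 0.13 and -0.25 there and 0.05, 0.01 and -0.12 at 21 hpf. The threonyl-tRNA synthetase *tars*, secreted by vessel cells in mammals, had 78.0, 91.3 and 72.6 FPKM in Tbx5a-, Tbx5b- and double-deficient embryos, against 79.8 FPKM in wildtype embryos at 18 hpf, and ratios of -0.03, 0.19 and -0.13 there and 0.03, -0.10 and -0.15 at 21 hpf. After rescaling, the ratios at 21 hpf were 0.50, 0.40 and 0.35 for *sars*, 0.61, 0.42 and 0.32 for *yars* and 0.59, 0.31 and 0.29 for *tars*, against 0.46, 0.32 and 0.35 for all features. The glycyl-tRNA synthetase *gars*, listed only in the preliminary experiment at 18 hpf, had 133 and 141 FPKM in the libraries labelled Tbx5a- and Tbx5b-deficient, against 104 FPKM in the wildtype library, with bounds of 96.6 to 169 and 103 to 179 FPKM that overlapped the wildtype bounds of 75.7 to 132 FPKM.

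The phenylalanyl enzyme of the cytosol is built from an alpha and a beta subunit, encoded by *farsa* and *farsb*, and their levels kept close to each other. *farsb* had 55.8, 45.1 and 62.1 FPKM in Tbx5a-, Tbx5b- and double-deficient embryos, against 45.1 FPKM in wildtype embryos at 18 hpf, and *farsa* 55.0, 42.7 and 60.8 FPKM in Tbx5a-, Tbx5b- and double-deficient embryos, against 46.7 FPKM in wildtype embryos. At 21 hpf *farsb* had 42.3, 50.4 and 47.3 FPKM in Tbx5a-, Tbx5b- and double-deficient embryos, against 56.8 FPKM in wildtype embryos, and *farsa* 45.5, 51.7 and 48.0 FPKM in Tbx5a-, Tbx5b- and double-deficient embryos, against 54.1 FPKM in wildtype embryos. The ratio of *farsb* to *farsa* was 0.929 to 1.05 over the 8 triplicate groups and 0.893 to 0.961 over the 3 preliminary groups at 21 hpf, while *farsa* varied 1.41-fold and *farsb* 1.46-fold in FPKM + 1 over the triplicate groups. In the preliminary experiment at 18 hpf, with its own set of loci, the ratio was 1.18 to 1.24.

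**Figure D3:**
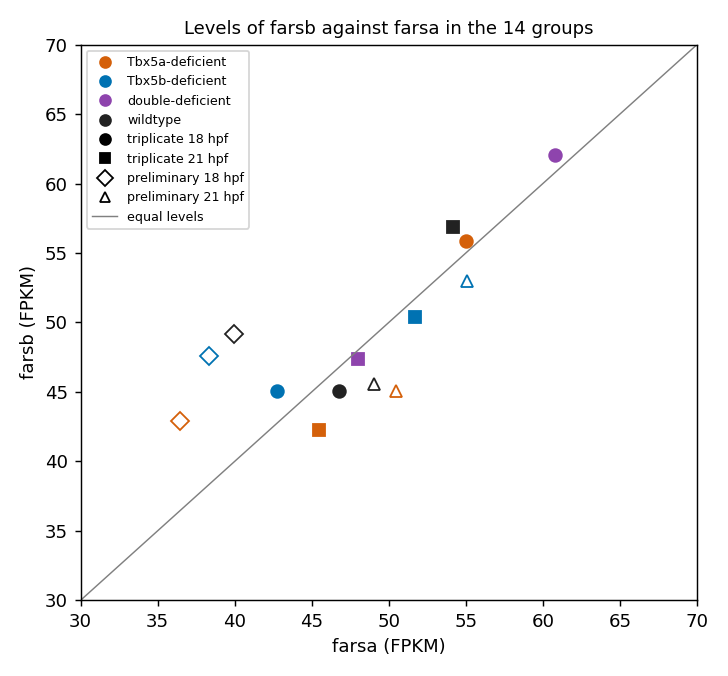
FPKM of *farsb* against *farsa* in the 14 groups, 1 point per group, with colour for the group, shape for stage and experiment, and a line of equal levels. The triplicate points lie along the line (ratio 0.929 to 1.05), and the 3 preliminary points at 18 hpf lie above it (1.18 to 1.24).

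Among mitochondrial enzymes, *lars2* had the largest mean shift at 18 hpf and *iars2* the highest level in wildtype embryos at that stage. The leucyl-tRNA synthetase *lars2* had, at 18 hpf, 5.74, 3.67 and 6.13 FPKM in Tbx5a-, Tbx5b- and double-deficient embryos, against 3.94 FPKM in wildtype embryos. At 21 hpf *lars2* had 2.93, 4.56 and 4.36 FPKM in Tbx5a-, Tbx5b- and double-deficient embryos, against 4.05 FPKM in wildtype embryos. Its log2 ratios were 0.45, -0.08 and 0.53 at 18 hpf and -0.36, 0.14 and 0.08 at 21 hpf, high in Tbx5a- and double-deficient embryos at 18 hpf as for *iars*, with bounds that overlapped. After rescaling they were 0.46, 0.17 and 0.43 at 18 hpf and 0.07, 0.47 and 0.44 at 21 hpf, so the sign in Tbx5a-deficient embryos at 21 hpf depended on the scaling. The rescaled medians of all features were -0.02, 0.27 and -0.13 at 18 hpf and 0.46, 0.32 and 0.35 at 21 hpf. *iars2* was above wildtype at 21 hpf, where its cytosolic counterpart *iars* was below, with 8.60, 10.1 and 10.00 FPKM in Tbx5a-, Tbx5b- and double-deficient embryos, against 7.87 FPKM in wildtype embryos, and log2 ratios of 0.11, 0.32 and 0.31, none with separate bounds, which became 0.61, 0.68 and 0.70 after rescaling. *iars* was 3.31 to 6.82 times the level of *iars2* over the triplicate groups. The other 8 mitochondrial enzymes listed there had log2 ratios of -0.35 to 0.27 at 18 hpf and -0.43 to 0.12 at 21 hpf, and the lowest were *rars2* (-0.43) and *wars2* (-0.36) in Tbx5a-deficient embryos at 21 hpf, which stood at -0.01 and 0.13 after rescaling.

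Set side by side, both classes moved little in the triplicate experiment. At 18 hpf the median log2 ratio of cytosolic enzymes was 0.07, 0.00 and 0.13 in Tbx5a-, Tbx5b- and double-deficient embryos, that of mitochondrial enzymes 0.08, -0.07 and 0.11, and that of all features -0.04, -0.01 and -0.03. At 21 hpf the cytosolic median was -0.23, -0.06 and -0.16, the mitochondrial median -0.14, 0.01 and -0.01, and the median of all features -0.02, -0.04 and -0.03. The largest gap between the classes was in double-deficient embryos at 21 hpf, where 13 of 16 cytosolic and 6 of 10 mitochondrial enzymes were below 0. After rescaling to a common sum, the 21 hpf medians were 0.32, 0.35 and 0.28 for cytosolic and 0.32, 0.32 and 0.35 for mitochondrial enzymes, against 0.46, 0.32 and 0.35 for all features. Centring on the median of all features instead moved no class median by 0.1 or more. The sign of both classes thus depended on the rescaling to a common sum and was not read as a direction. Across the 8 groups the median range was 0.44 on the log2 scale for cytosolic and 0.36 for mitochondrial enzymes, and 0.52 for all 11040 features usable in the 8 groups.

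**Figure D4:**
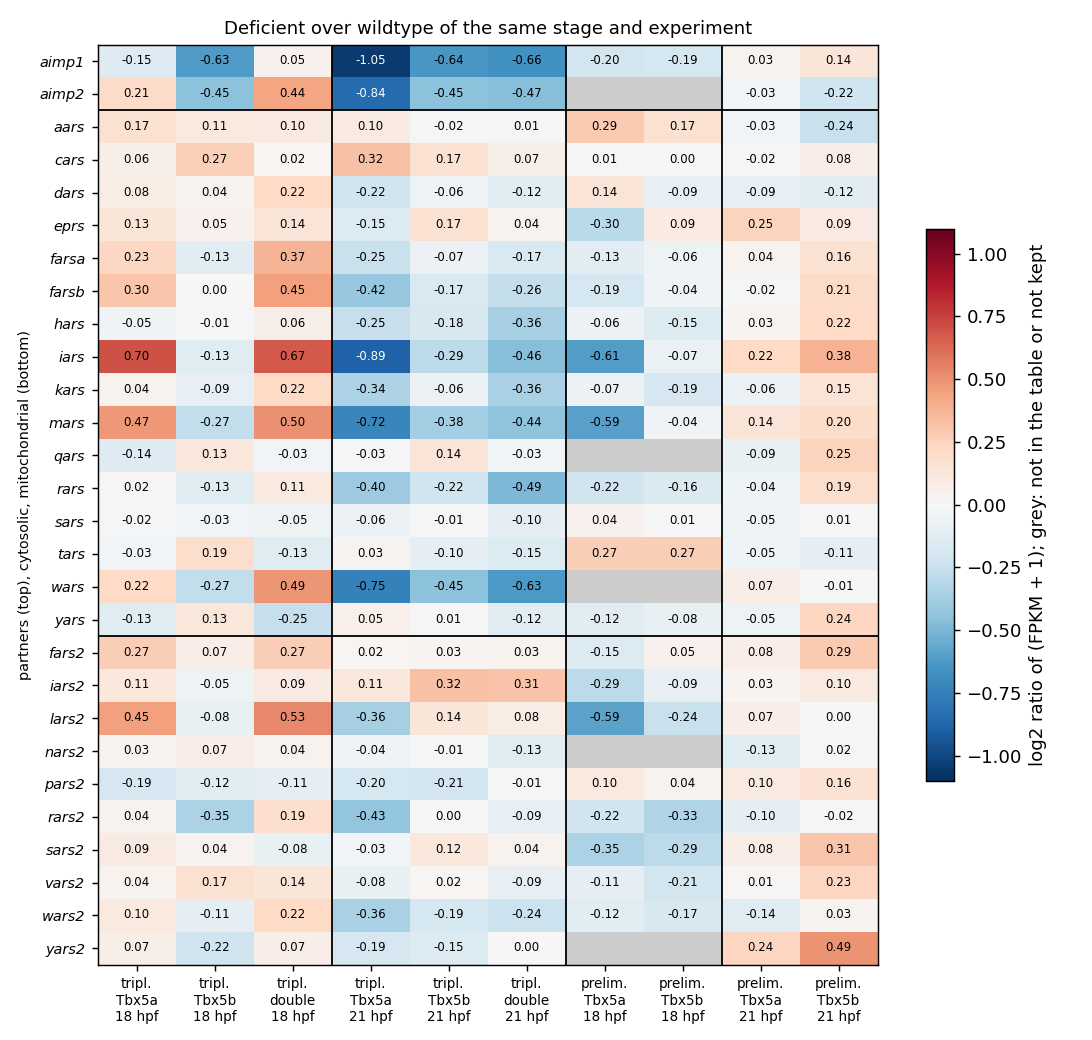
Log2 ratio of (FPKM + 1), deficient over wildtype of the same stage and experiment, for the 28 members of the triplicate experiment (rows: partners, cytosolic, mitochondrial) in 6 triplicate and 4 preliminary contrasts (columns); red is higher and blue lower in the deficient group, grey is not listed or not usable. *aimp1*, *aimp2*, *iars*, *mars* and *wars* are the bluest rows in Tbx5a-deficient embryos at 21 hpf, from -0.72 to -1.05, and none of the colours stands for a call.

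The preliminary libraries did not carry the same shifts. At 18 hpf, 3 of 32 members lay at or below -0.5 under the Tbx5a-deficient label (9.38% of members, 8.31% of all features) and none at or above 0.5 (6.08%): *iars*, *lars2* and *mars*, the same 3 that lay at or above 0.5 in double-deficient embryos of the triplicate experiment. *iars* had 25.8 and 38.1 FPKM in the libraries labelled Tbx5a- and Tbx5b-deficient, against 40.0 FPKM in the wildtype library. *mars* had 17.4 and 26.0 FPKM in the libraries labelled Tbx5a- and Tbx5b-deficient, against 26.7 FPKM in the wildtype library. *lars2* had 3.59 and 4.82 FPKM in the libraries labelled Tbx5a- and Tbx5b-deficient, against 5.88 FPKM in the wildtype library. The values are opposite in sign to those of the triplicate experiment for the same deficiency and stage, where *iars*, *mars* and *lars2* had ratios of 0.70, 0.47 and 0.45, and in no case did the bounds separate. Embryos were whole, eyes included, in the preliminary experiment and had their eyes removed in the triplicate one, and the part of that in the result was not tested. No member reached 0.5 in either direction in the other 3 preliminary contrasts, where 0.618% (Tbx5a, 21 hpf), 6.3% (Tbx5b, 21 hpf) and 7.33% (Tbx5b, 18 hpf) of all features lay at or below -0.5 and 0.463%, 6.25% and 7.45% at or above 0.5. The medians at 21 hpf were -0.03 and 0.16 for cytosolic and 0.05 and 0.13 for mitochondrial enzymes in the libraries labelled Tbx5a- and Tbx5b-deficient.

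Between stages, the sign of the cytosolic median depended on the scaling in all 4 groups. *iars* and *mars* kept theirs, as did some other members, among them *wars* and *nars2*. Taking the 21 over the 18 hpf value within a group, the median log2 ratio of cytosolic enzymes was -0.18, 0.14 and -0.20 in Tbx5a-, Tbx5b- and double-deficient embryos and 0.19 in wildtype embryos, and that of mitochondrial enzymes was -0.32, 0.00 and -0.24 and -0.05 in wildtype embryos. Rescaled to the same sum, the cytosolic medians were 0.09, -0.03 and 0.09 in the deficient groups and -0.08 in wildtype embryos, and those of all features were 0.23, -0.18 and 0.25 and, in wildtype embryos, -0.22. *aimp1* had stage ratios of -0.49, 0.41 and -0.29 in the deficient groups and 0.42 in wildtype embryos, *aimp2* -0.79, 0.27 and -0.64 against 0.26, and *iars* -1.03, 0.40 and -0.58 against 0.56. The rescaled stage ratios were -0.22, 0.23 and 0.00 against 0.15 for *aimp1*, -0.52, 0.10 and -0.35 against 0.00 for *aimp2*, -0.76, 0.24 and -0.28 against 0.30 for *iars*, and -0.59, 0.06 and -0.32 against 0.08 for *mars*. No member was called, with 1.06% of all features called in Tbx5a-deficient, 0.773% in Tbx5b-deficient, 1.37% in double-deficient and 0.578% in wildtype embryos. At or below -0.5 were 5 of 28 members in Tbx5a-deficient (*aimp2*, *iars*, *lars2*, *mars* and *rars2*, where 10.9% of all features did) and 4 in double-deficient embryos (*aimp2*, *iars*, *mars* and *wars*, where 7.51% did), against none in Tbx5b-deficient (4.72%) and wildtype embryos (4.34%). At or above 0.5 there was no member in Tbx5a-deficient (9.28% of all features), Tbx5b-deficient (5.68%) and double-deficient embryos (9.14%), and *iars* and *wars* in wildtype embryos (7.56%). With bounds set aside, only *iars* in Tbx5a-deficient embryos reached a ratio of 1 in size (3.02% of all features), and no member did in Tbx5b-deficient (1.81%), double-deficient (3.07%) and wildtype embryos (1.98%). The difference between groups in these stage ratios was not tested, since no values of single libraries were at hand.

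Genes that act beside the synthetases were also without a call in the triplicate experiment. Of 20 genes of the amino acid response, which in mammals is driven by Atf4 and includes many synthetase genes, 17 were listed and 0 of 17 passed in any deficient group (0.224% to 0.298% of all features did), with median log2 ratios of -0.04, -0.08 and 0.00 at 18 hpf and 0.07, -0.04 and -0.06 at 21 hpf. The factor *atf4a* itself, named here after its values were seen, had 459, 682 and 607 FPKM in Tbx5a-, Tbx5b- and double-deficient embryos at 21 hpf, against 1064 FPKM in wildtype embryos, log2 ratios of -1.21, -0.64 and -0.81 that became -0.65, -0.22 and -0.36 after rescaling. *asns*, the asparagine synthetase and a common target of that response in mammals, had ratios of 0.19, 0.11 and 0.04 in the same groups, and 0.72, 0.50 and 0.46 after rescaling. Of 30 genes of tRNA maturation and supply, 23 were listed and 0 of 23 passed against the same background, with medians of -0.05, -0.08 and 0.03 at 18 hpf and -0.14, -0.07 and -0.17 at 21 hpf. The lowest of them at 21 hpf was *pus7*, a pseudouridine synthase, also named after its values were seen, with 13.8, 19.0 and 14.1 FPKM in the deficient groups against 32.2 FPKM in wildtype embryos. The preliminary libraries at 21 hpf did not carry these decreases in the same way. Under the Tbx5a- and Tbx5b-deficient labels their log2 ratios were -0.12 and 0.99 for *atf4a* and 0.31 and 0.61 for *pus7*. Rescaled, the medians at 21 hpf were 0.59, 0.36 and 0.38 for the amino acid response and 0.40, 0.31 and 0.22 for tRNA maturation, beside 0.46, 0.32 and 0.35 for all features. In the preliminary experiment *atf4b1* (lower) and *phgdh* (higher), 2 of 14 listed genes of the amino acid response, were called in both libraries at 18 hpf (1.57% and 1.58% of all features), *phgdh*, of serine synthesis, was lower and called under the Tbx5b-deficient label at 21 hpf (1.65% of all features), and no gene of tRNA maturation was. *eef1e1*, the remaining scaffold protein of the complex, was not listed under that name in either experiment.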

How the data were processed

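Polyadenylated RNA was sequenced by the authors from 30 pools of embryos. Per the labels and the study's methods, reads were aligned with TopHat2 (version 2.1.0, with Bowtie2 2.2.5.0), assembled with Cufflinks and compared with Cuffdiff. The deposited FPKM values and their confidence bounds were made by the authors in that way, with 1 value per group in the triplicate experiment and 1 per library in the preliminary one. The level of the bounds and the read depth of single libraries are not given in the sources used here, so no interval was computed and the bounds cover only what the authors' software modelled. The labels name the genome build GRCz10 and the methods Zv9.

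Groups followed the labels. Features were kept in a contrast when marked usable in both groups and at 1 FPKM or more in 1 of them. Differences are log2 ratios with a pseudocount of 1, and were called at an absolute value of 1 or more with bounds that did not overlap. The exact permutation tests and the fits across all features that had been planned over libraries were not possible, since the 3 libraries of a group were combined. The call rule was tested on simulated data, with planted changes well above the cutoff in features of at least 10 FPKM. That test cannot show how often smaller changes, or changes in features below that level, would be called.

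Named genes were every *aimp1* and *aimp2* row, every called member, the highest and lowest member of each class in wildtype at 18 hpf, the 4 members with the largest mean shift at each stage, and *gars*, *kars*, *eprs*, *sars*, *wars*, *yars* and *tars*. Others are named as chosen after their values were seen, and *farsa*, *mars*, *rars*, *dars*, *rars2*, *wars2*, *larsa* and *hars2* are such additions. Of the 37 names, 1 is not reported here by itself and enters only counts and medians. The members and lists were chosen with earlier results of these data known. Alternatives were a pseudocount of 0.1, no filter, a filter of 10 FPKM, bounds not used, rescaling to a common sum, centring on the median of all features, other classes for *gars* and *kars*, and, added after seeing the data, leaving out *hars2* and rescaling the stage ratios, gene lists and marker sums. Python 3.11.15, pandas 2.3.3, numpy 2.4.6 and matplotlib 3.10.9 were used.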

Additional observations from a re-analysis of the deposited data

Results flagged for a closer look

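The cytosolic isoleucyl-tRNA synthetase *iars* differed from wildtype in opposite directions at the 2 stages in Tbx5a-deficient embryos of the triplicate experiment, within overlapping bounds. The log2 ratio to wildtype at 21 hpf minus that at 18 hpf was -1.59, from -0.89 and 0.70 (-1.06 with groups rescaled to the same sum of FPKM). The difference was not tested because each group has 1 combined value. Double-deficient embryos, compared with the same wildtype libraries, had ratios in the same directions, 0.67 at 18 hpf and -0.46 at 21 hpf (0.55 and -0.03 rescaled). In the preliminary libraries labelled Tbx5a-deficient, 1 per stage, the directions were reversed, with -0.61 at 18 hpf and 0.22 at 21 hpf. The triplicate directions were not particular to *iars*. *mars*, *kars*, *rars*, *dars*, *aimp2* and *wars*, among others, also lay above wildtype at 18 hpf and below it at 21 hpf in Tbx5a- and double-deficient embryos.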

How the results depend on the processing

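Only rescaling to a common sum moved values broadly, in 18 of 40 results. With every group rescaled to the same sum of FPKM, the median log2 ratio of cytosolic enzymes, that of mitochondrial enzymes and the ratio of *aimp1* became 0.31, 0.21 and -0.31 in Tbx5b-deficient and 0.0122, 0.00796 and -0.0658 in double-deficient embryos at 18 hpf. At 21 hpf they became 0.32, 0.32 and -0.49 in Tbx5a-deficient, 0.35, 0.32 and -0.23 in Tbx5b-deficient and 0.28, 0.35 and -0.22 in double-deficient embryos. In the preliminary library labelled Tbx5b-deficient at 21 hpf they became 0.30, 0.26 and 0.27. On that scale all features had medians of 0.27 and -0.13 in Tbx5b- and double-deficient embryos at 18 hpf. At 21 hpf their medians were 0.46, 0.32 and 0.35 in Tbx5a-, Tbx5b- and double-deficient embryos, and 0.13 in that preliminary library. The stage medians of cytosolic and of mitochondrial enzymes became 0.0908 and -0.0907 in Tbx5a-deficient, -0.0286 and -0.154 in Tbx5b-deficient and 0.0941 and 0.0243 in double-deficient embryos, and -0.0769 and -0.249 in wildtype embryos, an alternative added after seeing the data. Centring on the median of all features, the other scaling tried, moved 1 of 60 results. It brought the members at or above 0.5 in Tbx5a-deficient embryos at 18 hpf to 2. On centring, the triplicate ratios of *aimp1*, *aimp2*, *iars*, *mars*, *wars* and *lars2* to wildtype kept their signs, while some small ratios, such as that of *sars* in Tbx5a-deficient embryos at 18 hpf, did not. Setting the bounds aside brought the calls in Tbx5a-deficient embryos at 21 hpf to 1, which was *aimp1*. A pseudocount of 0.1 (40 results), no filter (30), a filter of 10 FPKM (20) and other classes for *gars* or *kars* (10 each) moved no value beyond the limits set, and the filter of 10 FPKM left too few mitochondrial enzymes for a median.

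No paired analysis was possible because the deposited triplicate values combine the 3 libraries of each group, and leaving out single replicates was not run for the same reason. The read depth of single libraries is not known here, and the width of the bounds limited which differences were called.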

Other observations

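Some members differed between tables more than between groups. The tyrosyl-tRNA synthetase *yars* had 113 and 116 FPKM in the preliminary libraries labelled Tbx5a- and Tbx5b-deficient at 18 hpf, against 123 FPKM in the wildtype library, while it ranged from 40.1 to 60.9 FPKM in the other tables. The mitochondrial *iars2* had 4.22 to 5.36 FPKM in the preliminary experiment at 18 hpf, where its listed locus was also that of *rab3gap2*, and 12.8 to 13.8 FPKM at 21 hpf.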
